A study of Drosophila melanogaster with 55 samples.

Results

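Mariner2_DM, POGO, POGON1 and S_DM are 4 names of DNA transposons of the Tc1-mariner superfamily, which includes the pogo group. They were taken by exact name from tables of RNA counts per repeat in Drosophila melanogaster embryos, where they make up 4 of 9263 repeat names and 4 of 208 names of transposable elements. The names were selected on their measured RNA levels in the same 12 libraries that are described here, so their levels and fold changes stand as a description. No p-value is given for them, and where the text counts how many of the 4 passed a threshold, in any of the comparisons, the count describes the fit beside its share over all repeats and supports nothing. Tests are read only for the other names of the family, which are not among the 4.

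The series joined RNA sequencing of early embryos with ChIP-seq, and its title names SetDB1 and acetylation of lysine 14 on histone H3. Each RNA library was made from 1 embryo at stage 5, the cellularising blastoderm, with 3 libraries in each of 4 groups and 100 ng of total RNA per embryo. Gcn5 knock-down embryos carried GFP-SetDB1, nos-Gal4 and a Gcn5 RNAi transgene. Embryos of the w knock-down carried the same GFP-SetDB1 and nos-Gal4 with an RNAi transgene against w, the white eye-colour gene, and served as their control. Both groups thus share a tagged SetDB1 and a Gal4 driver under nanos control, which is active in the germ line, so an embryo receives what a knocked-down mother loaded into the egg. SetDB1 F578A embryos had the genotype SetDB1 F578A/CyO, with CyO a balancer chromosome, and SetDB1 WT embryos had SetDB1 WT with no CyO named. The ChIP-seq labels of the same series name both GFP-SetDB1 and CyO for F578A and for WT, so the RNA labels may be abbreviated. As the RNA labels stand, an effect of F578A and one of CyO cannot be told apart, nor can Gcn5 loss and the particular RNAi line in the other. Nothing in the labels says whether libraries of a group came from separate mothers or crosses, so p-values measure the spread between these libraries.

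Transposons of the Tc1-mariner superfamily move by cut and paste: a transposase binds inverted repeats at both ends of the element, excises it and inserts it at a TA dinucleotide. Their transposase is translated from an mRNA, so RNA is needed for movement but, unlike in retrotransposons, is not itself copied back into DNA. In flies such elements are held silent by small RNAs in the germ line and by methylation of lysine 9 on histone H3, which SetDB1 (Eggless) places. Gcn5 is a histone acetyltransferase. Mariner2_DM is a mariner element, S_DM is the Tc1-like S element, POGO is the pogo element, and POGON1 is a non-autonomous relative of pogo that lacks a transposase of its own.

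The total per library was 1.92 to 3.21 M repeat counts, of which transposable elements took 2.6% to 5.92% and simple repeats 77.6% to 85.8%. The 4 names held 3.67% to 4.86% of the transposable element counts in Gcn5 knock-down libraries and 2.03% to 2.44% in w knock-down libraries, and 1.29% to 2.41% in F578A libraries and 1.84% to 2.28% in WT libraries. Libraries of a group differed well beyond counting error, with a chi-square per degree of freedom between 10 and 99.1 for each pair, and none was a duplicate of another. No gene was counted in these tables, so neither the level of Gcn5, w or SetDB1 nor the identity of the tissue can be checked in them. Each level is from a whole embryo, where fewer transcribing cells and less RNA per cell cannot be told apart, and RNA loaded by the mother is not separated from RNA made by the embryo.

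POGO was the most abundant of the 4 names in all 4 groups. Levels are given in CPM, the count of a name relative to the TMM size of its library, with TMM sizes taken over all 12 libraries. The mean POGO level was 785 CPM in the Gcn5 knock-down, 323 CPM in the w knock-down, 644 CPM in F578A and 548 CPM in WT. Among 181 transposable elements that passed a filter on low counts over the 12 libraries, POGO ranked 7th, 12th, 15th and 13th by CPM in that order of groups. All 4 names passed this filter.

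The 4 names differ in how much genome lies under each, and levels between names are therefore compared per kilobase of annotated length. The tables list 35.9 kb under POGO, 5.38 kb under POGON1, 26.8 kb under Mariner2_DM and 138 kb under S_DM. On this scale POGO and POGON1 stood highest of the 4. POGO averaged 21.9 ± 4.67 CPM per kb in the Gcn5 knock-down and 9.02 ± 1.58 in the w knock-down, and 18 ± 6.25 in F578A and 15.3 ± 1.99 in WT (SD, n = 3 each). POGON1 averaged 17.7 ± 7.87 CPM per kb in the Gcn5 knock-down and 20.4 ± 3.83 in the w knock-down, and 12.2 ± 2.42 in F578A and 17.7 ± 2.29 in WT (SD, n = 3 each). Per kilobase, the short name POGON1 was thus ranked between 3rd and 10th of the 181 elements, although by CPM it ranked only between 44th and 83rd.

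S_DM has the most annotated sequence of the 4 and the lowest level per kilobase in the Gcn5 knock-down. It averaged 0.577 ± 0.179 CPM per kb in the Gcn5 knock-down and 1.35 ± 0.429 in the w knock-down, and 1.05 ± 0.457 in F578A and 1.25 ± 0.453 in WT (SD, n = 3 each). Mariner2_DM stood at 9.54 ± 1.16 CPM per kb in the Gcn5 knock-down and at 0.699 ± 0.118 in the w knock-down, and at 0.918 ± 0.277 in F578A and 0.868 ± 0.383 in WT (SD, n = 3 each). Its place among the 181 elements per kilobase was 12th in the Gcn5 knock-down and 67th in the w knock-down, and 81st in F578A and 63rd in WT. Outside the Gcn5 knock-down, Mariner2_DM and S_DM were the low pair of the 4 names on this scale.

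**Figure D1:**
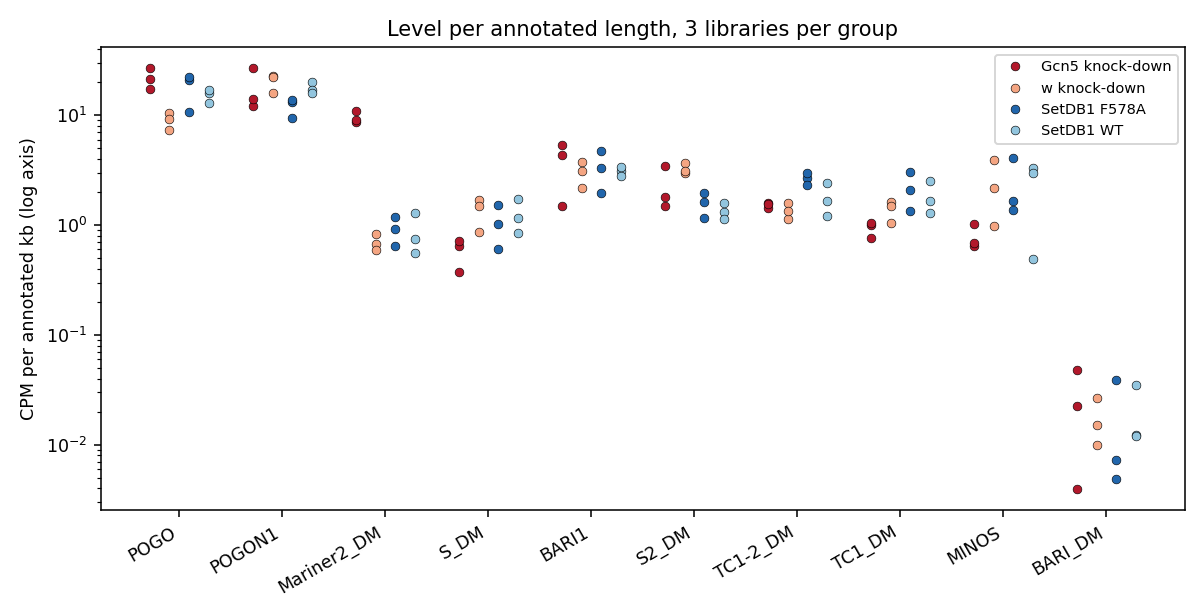
RNA level per annotated kilobase (CPM per kb, log axis) of the 4 names and 6 relatives in each of the 12 libraries, coloured by group. Of the names drawn, POGO and POGON1 lie near the top in all 4 groups, Mariner2_DM joins them only in the Gcn5 knock-down libraries, and BARI_DM lies far below all others. Mariner-3_Dro, with few counts on 0.244 kb, is not drawn. It averaged 11.7 CPM per kb in the Gcn5 knock-down, 19.1 in the w knock-down, 20.2 in F578A and 11.7 in WT, so a high level is not particular to the pogo names.

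The comparison of Gcn5 with w knock-down asks how the RNA of these elements differs after RNAi against a histone acetyltransferase in the mother's germ line. The 4 names did not move together. Mariner2_DM stood far higher and POGO moderately higher in the Gcn5 knock-down, S_DM stood lower, and POGON1 overlapped between the groups.

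Mariner2_DM, the mariner element, had 235, 241 and 292 CPM in Gcn5 knock-down libraries, against 18.1, 22.2 and 15.96 CPM in w knock-down libraries. The lowest Gcn5 knock-down library was above the highest w knock-down library by an order of magnitude. These levels rest on 550, 461 and 595 counts in Gcn5 knock-down libraries and on 41, 44 and 40 counts in w knock-down libraries. The log2 fold change was 3.76 (SE 0.358), a fold of 13.6, which ranked 2nd of 166 transposable elements tested. In the w knock-down the coefficient of variation between libraries was 16.9%, close to the 15.5% that counting error alone gives, whereas in the Gcn5 knock-down it was 12.2% against 4.32%.

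POGO had 958, 624 and 773 CPM in Gcn5 knock-down libraries, against 376, 331 and 263 CPM in w knock-down libraries. Every Gcn5 knock-down library lay above every w knock-down library, with replicate 1 the highest of each group. This is a log2 fold change of 1.26 (SE 0.268), a fold of 2.39, which ranked 8th of the 166 elements.

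S_DM, the Tc1-like S element, had 51.6, 89.0 and 98.0 CPM in Gcn5 knock-down libraries, against 120, 234 and 204 CPM in w knock-down libraries. The groups did not overlap, and replicate 1 was the lowest of each group. This is a log2 fold change of -1.24 (SE 0.403), ranked 158th of 166.

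POGON1 had 65.7, 75.9 and 144 CPM in Gcn5 knock-down libraries, against 86.0, 124 and 119.7 CPM in w knock-down libraries. Gcn5 knock-down replicate 3 was the highest of all 6 libraries and the other two Gcn5 knock-down libraries were the lowest, so the groups overlapped. The log2 fold change was -0.21 (SE 0.401), and without Gcn5 knock-down replicate 1 it was 0.0228.

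**Figure D2:**
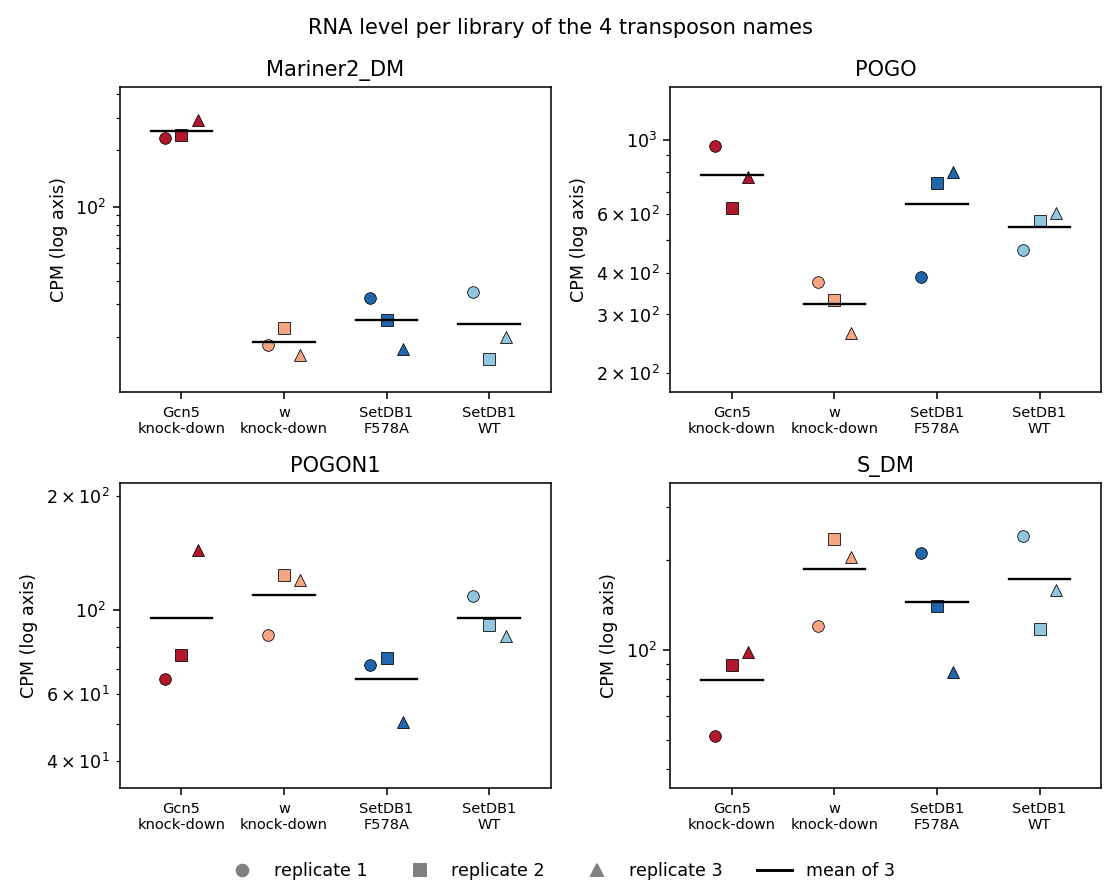
RNA level (CPM, log axis) of Mariner2_DM, POGO, POGON1 and S_DM in each library of the 4 groups, with 1 marker shape per replicate number and a line at the mean of 3. For Mariner2_DM the Gcn5 knock-down libraries sit between 235 and 292 CPM and the other 9 libraries between 15.1 and 34.8 CPM. For S_DM the Gcn5 knock-down libraries lie below all w knock-down and WT libraries but overlap those of F578A.

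Of the 4 names, 1 (Mariner2_DM) passed an adjusted p of 0.05 in edgeR's quasi-likelihood test and 3 had groups that did not overlap. Across all 2142 repeats tested, 2 (0.0934%) passed, and the groups did not overlap for 9.52% of all repeats and for 24.1% of the 166 transposable elements. Since the same contrast chose the names, nothing is read from these counts. The number of repeats passing rested on single libraries: it was 13 without Gcn5 knock-down replicate 1, 8 without w knock-down replicate 1, and 1 without Gcn5 knock-down replicate 2 or without w knock-down replicate 2 or 3. Same-numbered libraries of the knock-downs deviated together, and with the replicate number as a block 73 repeats and 3 of the 4 names passed (Mariner2_DM, POGO and S_DM). The blocked log2 fold changes were 3.76 (SE 0.335) for Mariner2_DM, 1.26 (SE 0.234) for POGO, -0.286 (SE 0.301) for POGON1 and -1.24 (SE 0.297) for S_DM.

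The family list held 9 further names, of which 5 had enough counts for a test in this comparison. None of the 5 passed in edgeR's test or in DESeq2, and 1 had an unadjusted p under 0.05. Their median log2 fold change was -0.54, with 2 positive and 3 negative, beside a median of 0.045 over the transposable elements, of which 88 of 166 were positive. The element named MINOS, first described in Drosophila hydei, had 3.41, 3.67 and 5.39 CPM in Gcn5 knock-down libraries, against 11.5, 20.7 and 5.19 CPM in w knock-down libraries. The fitted log2 difference was -1.58 with SE 0.703 and an adjusted p of 0.894 in edgeR's test, at 7 to 11 counts per library in the Gcn5 knock-down.

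The relatives closest by name to the members also fell short of the test. S2_DM, named after a second S element, averaged 54.9 ± 25.4 CPM in the Gcn5 knock-down and 80 ± 9.48 CPM in the w knock-down (SD, n = 3 each), and its log2 difference of -0.54 had an adjusted p of 0.993 in edgeR's test. TC1_DM averaged 43.8 ± 7.38 CPM in the Gcn5 knock-down and 64.6 ± 13.8 CPM in the w knock-down (SD, n = 3 each), with -0.58 on the log2 scale and the same adjusted p of 0.993. TC1-2_DM, with 0.16, and BARI1, the Bari-1 element, with 0.27, were on the positive side with the same adjusted p of 0.993 in edgeR's test, and BARI1 stood at -0.142 without Gcn5 knock-down replicate 3. The other 4 names, BARI_DM, Mariner_DMA, Mariner-3_Dro and UHU, did not pass the filter on low counts here. Mariner-3_Dro, the other mariner name with counts in all libraries, had 1, 9 and 7 counts in Gcn5 knock-down libraries, against 7, 9 and 16 counts in w knock-down libraries.

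**Figure D3:**
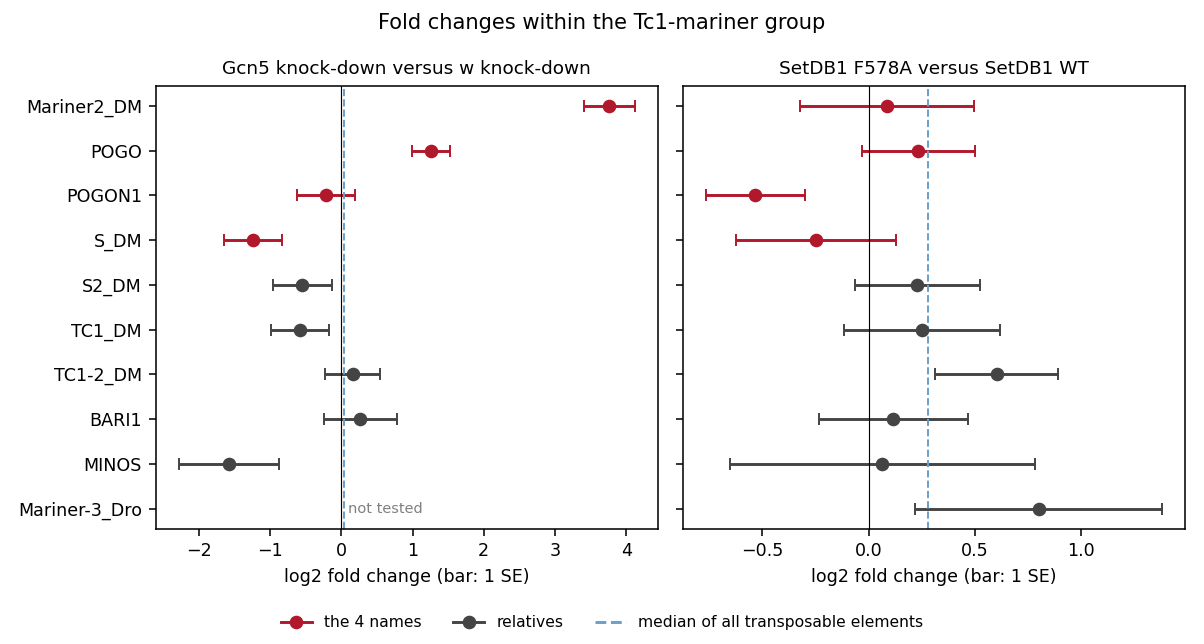
Log2 fold change with 1 SE from edgeR for the 4 names (red) and the tested relatives (grey), for Gcn5 against w knock-down and for F578A against WT; the dashed line is the median of all tested transposable elements. Mariner2_DM at 3.76 and POGO at 1.26 lie to the right in the Gcn5 comparison, S_DM at -1.24 and MINOS at -1.58 to the left, and in the F578A comparison POGON1 at -0.53 lies farthest left; 4 of the relatives on the positive side there are negative when libraries are scaled on transposable elements only.

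The comparison of SetDB1 F578A with SetDB1 WT asks how the same RNAs differ when SetDB1 carries a single amino acid change. Here Mariner2_DM, POGO and S_DM overlapped between the groups. POGON1 was the name whose groups did not overlap, and it was lower in F578A.

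POGON1 had 71.5, 74.8 and 50.7 CPM in F578A libraries, against 108.9, 91.4 and 85.2 CPM in WT libraries. Each F578A library was below each WT library, the nearest pair being 74.8 CPM in F578A and 85.2 CPM in WT. This gave a log2 fold change of -0.53 (SE 0.232), ranked 176th of 177 transposable elements tested, whose median was 0.28. When libraries were scaled on transposable elements only, which moved that median to 0.0069, the POGON1 value was -0.846 (SE 0.204).

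POGO had 388, 744 and 801 CPM in F578A libraries, against 468, 571 and 606 CPM in WT libraries. The WT libraries all fell inside the range of the F578A libraries, in which replicate 1 stood low. The log2 fold change was 0.23 (SE 0.265), and it was -0.00547 when scaled on transposable elements only.

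Mariner2_DM had 32.1, 24.6 and 17.2 CPM in F578A libraries, against 34.8, 15.1 and 20 CPM in WT libraries. The ranges nearly coincided, and the log2 fold change was 0.09 (SE 0.411). Scaled on transposable elements only it was -0.173, so the sign is not determined. S_DM had 210, 140.1 and 84.2 CPM in F578A libraries, against 239.9, 117 and 159 CPM in WT libraries, with replicate 1 the highest of each group. Its log2 fold change was -0.25 (SE 0.376), and it was -0.545 on transposable elements only, 0.0117 without F578A replicate 3 and 0.0709 without WT replicate 1.

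None of the 4 names passed in this comparison with edgeR's quasi-likelihood test or with DESeq2, and 1 of 4 had groups that did not overlap. Of all 2395 repeats tested 0.0418% passed, which is 1 repeat, and 129 had an unadjusted p under 0.05. The groups did not overlap for 12.4% of all repeats and for 13.6% of the 177 transposable elements. The count of repeats passing was 3 without F578A replicate 3, 30 with no filter and 29 with DESeq2. On transposable elements only, 10 of 178 passed, among them 1 of the 4 names. The same contrast chose the names, so nothing is read from their counts.

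Of the 9 relatives, 6 were tested against WT and none passed with edgeR or DESeq2, nor at an unadjusted p under 0.05. All 6 had a positive log2 fold change, with a median of 0.24, as had 141 of the 177 transposable elements, but TC1_DM, S2_DM, BARI1 and MINOS turned negative when libraries were scaled on transposable elements only. TC1-2_DM averaged 96.6 ± 12.5 CPM in F578A and 63.7 ± 22.5 CPM in WT (SD, n = 3 each), or 0.60 on the log2 scale with SE 0.289 and an adjusted p of 0.899 in edgeR's test. Mariner-3_Dro had 7.37, 4.86 and 2.55 CPM in F578A libraries, against 4.09, 1.64 and 2.80 CPM in WT libraries, or 0.80 on the log2 scale with SE 0.581 and an adjusted p of 0.93 in edgeR's test. TC1_DM at 0.25, S2_DM at 0.23, BARI1 at 0.12 and MINOS at 0.07 were smaller, with edgeR adjusted p between 0.943 and 0.987.

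**Figure D4:**
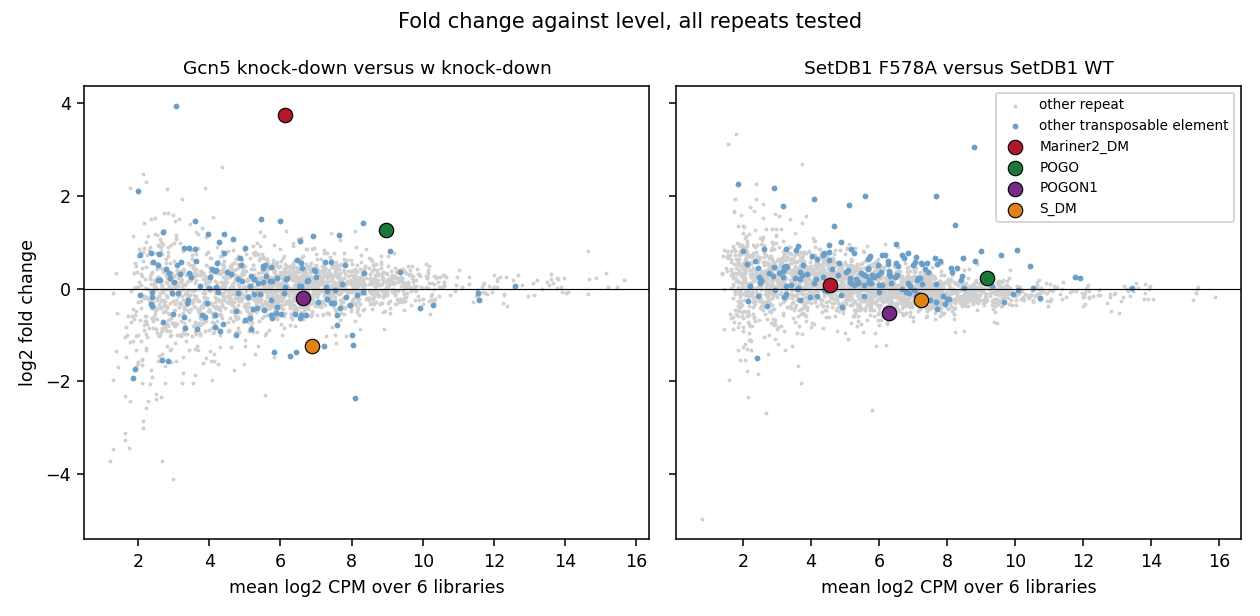
Log2 fold change against mean log2 CPM for all repeats tested (simple and other repeats, transposable elements and the 4 names in separate colours), for Gcn5 against w knock-down and for F578A against WT. Mariner2_DM at 3.76 stands apart from the cloud at its level in the Gcn5 comparison, whereas in the F578A comparison all 4 names lie between -0.53 and 0.23.

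The difference between the Gcn5 and F578A effects was taken from a single model of all 12 libraries. For Mariner2_DM the Gcn5 effect exceeded the F578A effect by 3.69 on the log2 scale (SE 0.516), the 1st of 181 transposable elements. For POGO the difference was 1.05 (SE 0.387), for POGON1 it was 0.33 (SE 0.474), and for S_DM it was -0.98 (SE 0.548). Of the 4 names, 1 passed in edgeR's test of this difference, and 0.0407% of 2458 repeats did, which is 1 repeat, Mariner2_DM itself. The same 12 libraries chose the names, so nothing is read from this count. The number of repeats passing was 2 without Gcn5 knock-down replicate 1 or 3 or without F578A replicate 3. Leaving out Gcn5 knock-down replicate 3 turned the POGON1 difference to -0.124. No relative passed among the 7 tested in edgeR's test, in DESeq2 or at an unadjusted p under 0.05, with adjusted p of 0.997 for TC1_DM, S2_DM, MINOS and Mariner-3_Dro and of 1 for the other 3.

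The control groups differ in genotype, since no label of SetDB1 WT embryos names nos-Gal4 or an RNAi transgene. Whether both groups were prepared together is not stated in the labels. Neither carries the F578A change or the Gcn5 RNAi transgene. POGO stood at 468, 571 and 606 CPM in WT libraries, against 376, 331 and 263 CPM in w knock-down libraries, and the groups did not overlap. The log2 fold change was 0.76 (SE 0.215), beside a median of 0.47 over 168 transposable elements. WT libraries thus lay between the w and Gcn5 knock-downs, and the highest of them, at 606 CPM, was close to the lowest Gcn5 knock-down library at 624 CPM.

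The other 3 names overlapped between the control groups. Mariner2_DM averaged 23.3 ± 10.3 CPM in WT and 18.7 ± 3.17 CPM in the w knock-down, POGON1 95.1 ± 12.3 CPM in WT and 110 ± 20.6 CPM in the w knock-down, and S_DM 172 ± 62.4 CPM in WT and 186 ± 59.1 CPM in the w knock-down (SD, n = 3 each). The log2 fold changes of WT over w knock-down were 0.31 (SE 0.444) for Mariner2_DM, -0.21 (SE 0.266) for POGON1 and -0.12 (SE 0.333) for S_DM. For Mariner2_DM the sign was the opposite when scaled on transposable elements only, at -0.171.

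Of the 4 names, 1 (POGO) passed in edgeR's test between the controls and 1 had groups that did not overlap. In the same fit 23.5% of 2257 repeats passed, and the groups did not overlap for 43% of all repeats and 31.5% of transposable elements. Levels in both groups were among those that chose the names, so nothing is read from these counts. POGO no longer passed without WT replicate 2, without WT replicate 3 or without w knock-down replicate 3, nor with no filter, on transposable elements only or with all 12 libraries in the fit. The number of repeats passing was 530, with 271 without WT replicate 3, 668 with DESeq2, and 14 of 172 on transposable elements only. Among 5 relatives tested, S2_DM passed, with 32.3, 28.2 and 38.8 CPM in WT libraries, against 72.8, 90.8 and 76.6 CPM in w knock-down libraries. Its log2 fold change of WT over w knock-down was -1.28 (SE 0.297), with an edgeR adjusted p of 0.0118, which was 0.0517 without WT replicate 3 and ranged over all alternatives between 0.000176 and 0.0584. TC1_DM, TC1-2_DM, BARI1 and MINOS did not pass, with edgeR adjusted p between 0.435 and 0.969.

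Over the 4 groups, Mariner2_DM and POGO had the same order of mean levels, highest in the Gcn5 knock-down, then in F578A, WT and the w knock-down, and POGON1 and S_DM each had another. For Mariner2_DM the F578A, WT and w knock-down libraries overlapped one another. For POGO neighbours in the order overlapped except at the low end, where all w knock-down libraries lay below those of the other groups, the nearest F578A library being 388 CPM. POGON1 was lowest in F578A, whose highest library at 74.8 CPM lay below all w knock-down and WT libraries, while the Gcn5 knock-down libraries overlapped those of every other group. S_DM was lowest in the Gcn5 knock-down, whose libraries overlapped those of F578A but not those of WT or the w knock-down. Across the experiments, the share of repeats without overlap was counted only between the controls. It was 43% of all repeats and 31.5% of transposable elements there. The names were chosen on these levels, so nothing is read from the lack of overlap.

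Ratios of counts within a library do not depend on how libraries are scaled. Per 100 POGO counts, POGON1 had 6.86, 12.2 and 18.6 counts in Gcn5 knock-down libraries, against 22.9, 37.3 and 45.5 in w knock-down libraries. The same ratio was 18.4, 10 and 6.33 in F578A libraries, against 23.3, 16 and 14.1 in WT libraries. It was thus lower in every Gcn5 knock-down library than in any w knock-down library, whereas F578A and WT libraries overlapped. The names were chosen on these values and no share over other ratios was taken, so this is a description. Unequal change of POGO and its non-autonomous relative is all that such a ratio shows.

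Mariner2_DM and S_DM gave the widest contrast. Per 100 S_DM counts, Mariner2_DM had 455, 271 and 298 counts in Gcn5 knock-down libraries, against 15.1, 9.48 and 7.81 in w knock-down libraries. In the other experiment it had 15.3, 17.6 and 20.5 counts in F578A libraries, against 14.5, 12.8 and 12.6 in WT libraries. S_DM counts thus exceeded Mariner2_DM counts in all libraries of 3 groups and were exceeded by them in the 3 Gcn5 knock-down libraries. The F578A libraries lay above the WT libraries in this ratio without overlap, by a small margin of 15.3 against 14.5 at the nearest pair. How often ratios of other repeats do not overlap was not counted, and the names were chosen on these values. Nothing is read from the lack of overlap. Of the summed CPM of the 4 names, Mariner2_DM made up 21.2% ± 2.91 in the Gcn5 knock-down and 2.93% ± 0.246 in the w knock-down, and 2.96% ± 1.44 in F578A and 2.76% ± 1.16 in WT (SD, n = 3 each).

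**Figure D5:**
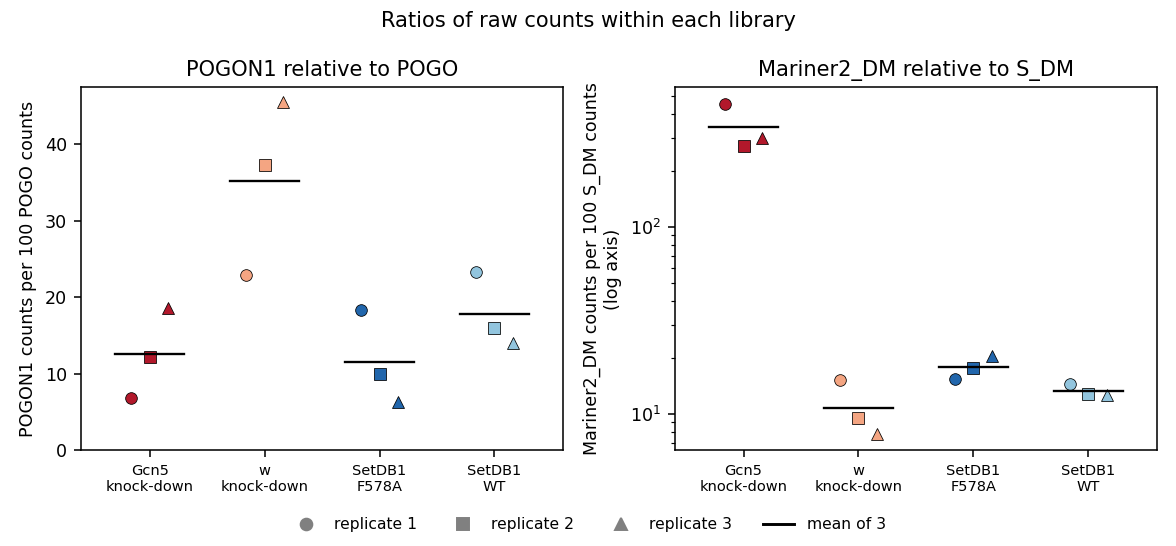
Counts of POGON1 per 100 POGO counts (linear axis from 0) and of Mariner2_DM per 100 S_DM counts (log axis) within each library, by group. In the first panel the Gcn5 knock-down libraries (6.86 to 18.6) lie below the w knock-down libraries (22.9 to 45.5), and in the second they lie between 271 and 455, above the 7.81 to 20.5 of all other libraries.

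The elements with the most similar pattern to each name were found by the root mean square (RMS) difference in log2 CPM over the 12 libraries, after each element was centred on its own mean, among the 181 elements. No element followed Mariner2_DM closely. The nearest was DM412B_LTR, the terminal repeat of a Gypsy-family retrotransposon, at an RMS difference of 0.957, then Gypsy12A_LTR at 1.19 and the LINE-like G2_DM at 1.25, beside a spread of Mariner2_DM itself of 1.57. DM412B_LTR averaged 527 ± 160 CPM in the Gcn5 knock-down and 196 ± 8.43 CPM in the w knock-down, and 204 ± 34.3 CPM in F578A and 140 ± 3.12 CPM in WT (SD, n = 3 each). DM412B_LTR was thus also highest in the Gcn5 knock-down, at a smaller contrast than Mariner2_DM. It was chosen for likeness to Mariner2_DM over the same libraries, so this shared high group follows from the choice. The log2 fold change of DM412B_LTR in Gcn5 against w knock-down was 1.425 (SE 0.316), with an adjusted p of 0.177 in edgeR's test. The separate element whose name lacks only the ending B_LTR went the other way, at -2.369 (SE 0.386). That was the lowest value of the 166 transposable elements tested, so the higher level of DM412B_LTR does not extend to its namesake.

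POGO was nearest to Gypsy12A_LTR (RMS 0.371), to the telomere retrotransposon HETA (0.397) and to the LINE element DOC5_DM (0.399), beside its own spread of 0.553. Gypsy12A_LTR averaged 106 ± 16 CPM in the Gcn5 knock-down and 38.4 ± 5.94 CPM in the w knock-down, and 74.5 ± 11.9 CPM in F578A and 58.4 ± 2.14 CPM in WT (SD, n = 3 each), the same order of groups as POGO. DOC5_DM had this order too. Both were chosen for likeness to POGO over the same libraries, so the shared order follows in part from the choice. HETA did not, with 185 ± 49.1 CPM in F578A above 137 ± 19.7 CPM in the Gcn5 knock-down (SD, n = 3 each). S_DM was nearest to the telomere retrotransposon TART_B1 (0.251), to NOMAD_LTR (0.294) and to BEL_I-int (0.313), beside its own spread of 0.653. TART_B1 averaged 104 ± 22.7 CPM in the Gcn5 knock-down and 241 ± 110 CPM in the w knock-down, and 232 ± 64.1 CPM in F578A and 259 ± 88.5 CPM in WT (SD, n = 3 each).

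POGON1 had the closest neighbour of the 4 names, Galileo_DM, a DNA transposon of another superfamily, at an RMS difference of 0.207 beside a spread of POGON1 itself of 0.41. Galileo_DM had 1.97 to 3.3 times the counts of POGON1 over the 12 libraries. It averaged 227 ± 97.7 CPM in the Gcn5 knock-down and 256 ± 75.8 CPM in the w knock-down, and 182 ± 12.5 CPM in F578A and 224 ± 10.3 CPM in WT (SD, n = 3 each). The next were G5A_DM at 0.395 and DNAREP1_DM, the INE-1 element, at 0.425. POGO was not among the 3 nearest to POGON1.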

How the data were processed

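RNA was sequenced from 12 libraries, and raw counts per repeat name were used as the authors deposited them, with all copies under a name pooled. The submitters' processing notes list Trim Galore 0.6.0, Bowtie2 2.3.5.1, featureCounts 1.6.5, MACS2 2.2.6 and the builds dm6 and BDGP6, and the file headers name alignment files in a folder called starOut. How reads with several places in the genome were counted, whether strand was used, and the repeat annotation are not given in the sources used here. Related names (POGO and POGON1, S_DM and S2_DM) could therefore share reads, and their separate values are uncertain. Totals of 1.92 to 3.21 M counts limit the precision of names with few counts.

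Counts were tested with edgeR 4.0.16 in R 4.3.3 (TMM, filterByExpr, quasi-likelihood test, Benjamini-Hochberg over all repeats tested, threshold 0.05), in separate fits of the groups compared, 3 libraries each, and an interaction over all 12. SE is the log2 fold change divided by the square root of F. CPM and likeness (log2 of CPM + 0.5) used TMM sizes over 12 libraries. DESeq2 1.42.0, other scalings, no filter, a replicate block, transposable elements only, a shared fit and leaving out each library were alternatives. The edgeR fit was tested on simulated data. Of repeats given a log2 change of 2, it recovered 80.9% for Gcn5 against w knock-down, 83% for F578A against WT and 93.8% between the controls. Among unchanged repeats, 14 of 1855, 4 of 2129 and 5 of 1998 passed in that order. For Gcn5 against w knock-down, 94 of the 2142 simulated repeats had a log2 change of 2 and 89 one of 3. That is far more than the 2 that passed in the data, and it makes the adjusted threshold easier to pass. Simulated libraries were also drawn independently, without the pairing seen in the knock-downs. The recovered shares therefore do not carry over to the data. Named elements are the 4 members, the family list matched by name patterns, and the 3 nearest elements of each member. The namesake of DM412B_LTR was added after the values were seen. The members, lists and alternatives were chosen with earlier results of these data known.

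Same-numbered Gcn5 and w knock-down libraries had deviations from their group means that correlated across repeats at 0.54, 0.22 and 0.37. The main fits did not pair libraries. The numbers were treated as pairs only in the alternative with a replicate block, as no label explains the numbering. Peak lists of the same series, and copies of these elements under them, were not analysed here.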

Additional observations from a re-analysis of the deposited data

How the results depend on the processing

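In Gcn5 against w knock-down, Mariner2_DM (3.62 to 3.93), POGO (1.14 to 1.38) and S_DM (-1.49 to -0.974) kept their sign under the 7 other settings and with each of 6 libraries left out, while POGON1 lay between -0.679 and 0.0228. Repeats passing numbered 2, against 15 with no filter, 14 with DESeq2, 7 on transposable elements only, 8 with all 12 libraries fitted together and 1 to 13 with a library left out; of the 4 names, 2 passed with no filter, with DESeq2 and on transposable elements only. With the replicate block, 73 repeats and 3 of the 4 names passed. In F578A against WT, 1 repeat passed, against 30 with no filter, 29 with DESeq2, 10 on transposable elements only, 3 with all 12 libraries and 1 to 3 with a library left out. In every comparison, the fit on transposable elements only left out all other repeats, so its counts come from a smaller set tested. With no filter, the set tested was larger. The counts here are not given as shares of the repeats tested, so nothing is read from how many of the 4 names passed. On transposable elements only, 1 of the 4 names passed and POGON1 was -0.846. That scaling reversed TC1_DM (-0.0436), S2_DM (-0.0921), BARI1 (-0.144) and MINOS (-0.175); leaving out a library gave -0.0681 to 0.563 for TC1_DM, -0.22 to 0.41 for BARI1 and -0.544 to 0.447 for MINOS.

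Between the controls, 530 of 2257 repeats passed, and 271 to 514 with a library left out. In the fit of transposable elements only, which tested far fewer names, 14 passed. Of the 4 names, 0 passed with no filter, on transposable elements only and with all 12 libraries, and 0 to 1 with a library left out, as for relatives. On transposable elements only, Mariner2_DM was -0.171, POGO 0.376, POGON1 -0.584, TC1_DM -0.0513, TC1-2_DM -0.0754 and BARI1 -0.321. BARI1 was also -0.0121 with the size factors of DESeq2, -0.0273 with total counts and -0.0111 with DESeq2. Leaving out a library gave 0.523 to 0.864 for POGO, -0.237 to 0.223 for BARI1, -0.542 to 0.521 for MINOS and -1.43 to -1.18 for S2_DM. In the difference of effects, 1 repeat passed, against 8 with no filter, 6 with DESeq2, 2 on transposable elements only and 1 to 2 with a library left out; that range was 3.26 to 3.92 for Mariner2_DM, -0.124 to 0.559 for POGON1, -0.13 to 2.16 for BARI_DM and -0.207 to 0.545 for BARI1. In the Gcn5 comparison BARI1 ranged from -0.142 to 0.637.

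In F578A against WT, same-numbered libraries deviated together for replicate 1 (correlation 0.66) but not for replicates 2 and 3 (-0.099 and -0.029). F578A replicate 3 went with WT replicate 2 instead, at 0.71. Between the controls same-numbered libraries did not pair (-0.47, -0.32 and -0.081). With the replicate block, 7 repeats passed for F578A, 311 for the controls and 4 for the difference of effects. Between the controls, 0 of the 4 names and 0 relatives passed with it (S2_DM -1.28, edgeR adjusted p = 0.0584). The cause of these shifts was not tested. Copies of the elements under peaks, with their 3 alternatives on overlap, threshold and chromosomes, were not run.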

Other observations

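Within groups, POGO and S_DM often stood at opposite ends. The library with the most POGO was the one with the least S_DM in the Gcn5 knock-down (replicate 1), the w knock-down (replicate 1) and F578A (replicate 3), and in F578A and WT replicate 1 had the least POGO and the most S_DM. In both SetDB1 groups replicate 1 also had the highest Mariner2_DM and TC1_DM, and the highest share of counts on transposable elements, at 5.92% in F578A and 4.66% in WT. S_DM and TC1_DM had their highest and their lowest library in common in all 4 groups. These orders were noticed after the values were seen and were not tested.

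BARI_DM and BARI1 share a name and differ in how RNA counts relate to annotated length. The tables list 132 kb under BARI_DM with a mean of 7 counts in the Gcn5 knock-down and 5 in the w knock-down, and 7 in F578A and 7.333 in WT. BARI1 has 11.5 kb and averaged 91.67 counts in the Gcn5 knock-down and 77.33 in the w knock-down, and 120 in F578A and 94.33 in WT. Per kilobase, BARI_DM was the lowest of the 181 elements in all 4 groups, whereas BARI1 ranked between 22nd and 31st.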
